A study of Mus musculus with 4 samples.

Results

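The 2 wild-type samples of this series, numbered 3 and 4, hold RNA of mouse embryos at embryonic day 9.5, taken from the posterior part only. They are 2 of 4 samples. The other 2, numbered 1 and 9, are Jmjd3-/- and are used here for a few checks only. Embryos of both genotypes came from intercrosses of Jmjd3+/- mice, were staged by the time after mating and by somite number, and were genotyped before RNA was extracted. The design text calls the RNA samples of a genotype independent, and nothing in the labels says whether a sample is 1 embryo or a pool, or gives the strain. Each sample was labelled with Cy3 from 0.4 ug of RNA and hybridised to 1 single-colour Agilent array. The question asked of these samples was which genes gave a high, a middle or no clear signal in normal tissue.

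At this stage the posterior embryo is still extending. Progenitors in the tail bud feed the presomitic mesoderm, where a segmentation clock built on Notch, Wnt and FGF signalling cuts off somites, and they also feed the spinal cord. Lateral plate mesoderm, hindgut, notochord, surface ectoderm, vessels and circulating primitive red cells share the tissue. Hox genes are switched on in the order in which they lie along their clusters and mark position along the body axis.

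A level is the log2 processed signal of a gene's brightest probe minus the 75th percentile of all probes on the same array. A level of 0 is therefore that percentile, and a level of 3 is 8-fold above it. A gene was called high where its level was at least 3 on both wild-type arrays and it was well above background on both, by the scanner software's own flag. It was called middle where it was well above background on both and not high. Probes differ in how strongly they bind, so the order of signals is not an order of transcript abundance. Values are given for replicates 3 and 4 in that order.

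The wild-type arrays were alike in brightness. The 75th percentile of the processed signal was 598.5 and 627.1, and 61.6% and 62.3% of 41174 probes were well above background, against 59.8% to 63.0% over all 4 arrays. No spot was saturated. Of 153 negative control probes, 0 and 3 passed the background flag in the wild-type arrays, and the median negative control lay at a level of -7.59 and -7.67. Kdm6b, the gene known as Jmjd3, which encodes a demethylase of lysine 27 on histone H3, had a middle level of 2.15 and 2.23 in wild-type, against 0.35 and 0.11 in the Jmjd3-/- samples. Its only probe was well above background on all 4 arrays, and whether that probe lies in the deleted part of the gene was not analysed here. None of 8 probes for 6 Y-linked genes (Ddx3y, Eif2s3y, Kdm5d, Sry, Uty and Zfy1) passed the background flag on any of the 4 arrays. Xist, the RNA that silences an X chromosome, was well above background on all 4, at 2.10 and 2.18 in wild-type with its brightest probe. The labels give no sex.

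Names could be given to 18224 genes. Of these, 2315 (12.7%) were high, 11173 (61.3%) were middle, 527 (2.89%) were well above background on 1 array and 4209 (23.1%) on neither. The median level of all named genes was -1.23. The middle class was wide: 4879 of its genes lay above the 75th percentile on both arrays, 6100 lay below it on both, and 194 lay on both sides. At higher levels the counts fell steadily, with 1281 genes at 4 or more on both arrays, 627 at 5 or more, 282 at 6 or more, 137 at 7 or more, 49 at 8 or more and 6 at 9 or more. The boundary of the high class cuts through a continuous distribution. Just inside it were Sde2 (3.08 and 3.00), Ciao1 (3.02 and 3.00) and Ryk (3.15 and 3.01). Just outside it were Carhsp1 (3.06 and 3.00), Snhg3 (3.00 and 3.14) and Pprc1 (3.00 and 3.05), where the lower value fell short of 3 before rounding.

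**Figure D1:**
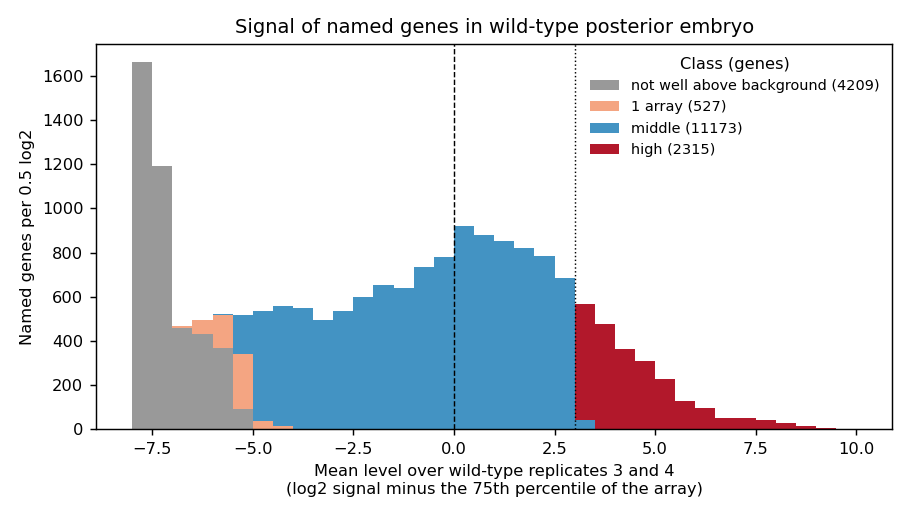
Histogram of the mean level of 18224 named genes over wild-type replicates 3 and 4 (x axis, log2 signal minus the array's 75th percentile; y axis, genes per 0.5 log2), stacked by signal class. The dashed line marks the 75th percentile and the dotted line the boundary of high; the 4209 genes not well above background pile up at the left, near the level of the negative controls.

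Genes of protein synthesis gave the brightest signals. Among the 25 named genes with the highest mean, 16 encode cytosolic ribosomal proteins, as do 48 of the highest 100. Rpl7a, a protein of the large ribosomal subunit, read 9.53 and 9.46, and Rps18, of the small subunit, read 9.48 and 9.46. Rps23 read 9.29 and 9.22. On each of these genes the arrays differed by less than 0.1. Of 78 ribosomal protein genes measured, 76 were high, with a median level of 7.76; the other 2, Rpl31 and Rpl21, were middle. A list of translation factors and nucleolar proteins followed the same pattern, with 23 of 24 high and a median of 6.21. It includes Eef1g, a subunit of the elongation factor that recycles EF1A, at 8.37 and 8.31. The nucleolar proteins Npm1 (8.34 and 8.30) and Fbl (7.89 and 7.91) also belong to it. The exception was Eef1a2, the elongation factor form of adult muscle and neurons, which passed the background flag on neither array. Ribosomal protein genes have many processed copies in the genome, and the probes' own sequences were not analysed here, so signal shared between copies cannot be separated.

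The other genes among the 25 were of mixed function. The highest of all was Lars2, the mitochondrial leucyl-tRNA synthetase, at 9.63 and 9.54, on its only probe. The 4 histone H2A genes among them were H2ac1 (9.03 and 8.96), H2aj (8.83 and 8.74), H2ac10 (8.76 and 8.71) and H2ac20 (8.53 and 8.47). Histone genes of a family are close copies of each other, and of 40 core histone genes 18 were high while 8 were not well above background. Hmga1, a chromatin protein of embryonic and dividing cells, read 8.76 and 8.74. Rack1, which sits on the ribosome, the growth factor precursor Grn and the glycolytic enzyme Aldoa completed the set. The ribosomal count includes Fau, which encodes a ribosomal protein fused to a ubiquitin-like protein.

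Many genes of cell division were high. Of 33 genes of the cell cycle and DNA replication, 22 (66.7%) were high, against 12.7% of all named genes, with a median of 4.42. Mcm6, a subunit of the replicative helicase, had a mean of 6.99 and an SD of 0.019. Cdc20, which activates the anaphase-promoting complex, read 6.52 and 6.46, and Pcna, the sliding clamp of DNA polymerase, read 6.44 and 6.32. Cdkn2a, an inhibitor of the cell cycle, was the only member that passed the flag on neither array. Glycolysis showed 17 of 26 high, among them Aldoa (8.46 and 8.48), Ldha (7.95 and 7.96) and Pgk1 (7.35 and 7.37). The cytoskeleton showed 19 of 25 high, with the tubulin Tubb5 at 8.24 and 8.21. Actb, the cytoplasmic beta-actin gene, read -0.39 and -0.55 on its only probe, which illustrates that a level belongs to a probe as well as to a gene.

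Several other families of housekeeping genes, grouped by symbol after the values had been seen, were almost completely above background. All 78 mitochondrial ribosomal protein genes, all 44 subunits of respiratory complex I and all 22 splicing genes of the Srsf and Snrp series were well above background on both arrays, with 48, 32 and 16 high. Of 40 proteasome genes, 39 were well above background and 30 were high. Zinc finger genes named Zfp were mostly above background too, 303 of 331, but only 23 were high, and their median was -0.62. The opposite was seen in families tied to adult organs. Of 886 olfactory receptor genes 119 (13.4%) were well above background on both arrays and 0 were high. Of 128 vomeronasal receptor genes 11 (8.59%) were well above background, and of 28 beta defensins 2 were. Potassium channels of the Kcn series stood between, with 40 of 85 (47.1%) above background, as did cytochrome P450 genes with 33 of 80 (41.2%) and interleukins and their receptors with 31 of 80 (38.8%).

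The labelled tissue was checked against marker lists. Genes of posterior tissues expected in the dissection (10 lists, 195 genes) were well above background on both arrays in 179 cases (91.8%), but only 9 were high. Markers of other cell types that the dissection could carry were above background in 132 of 171 cases (77.2%). Markers of tissues that form later were above background in 64 of 122 cases (52.5%), with 0 high. All named genes gave 74.0%. A gene on several lists was counted 1 time in each of these groups. In whole tissue, fewer cells of a type and less RNA per cell cannot be told apart.

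**Figure D2:**
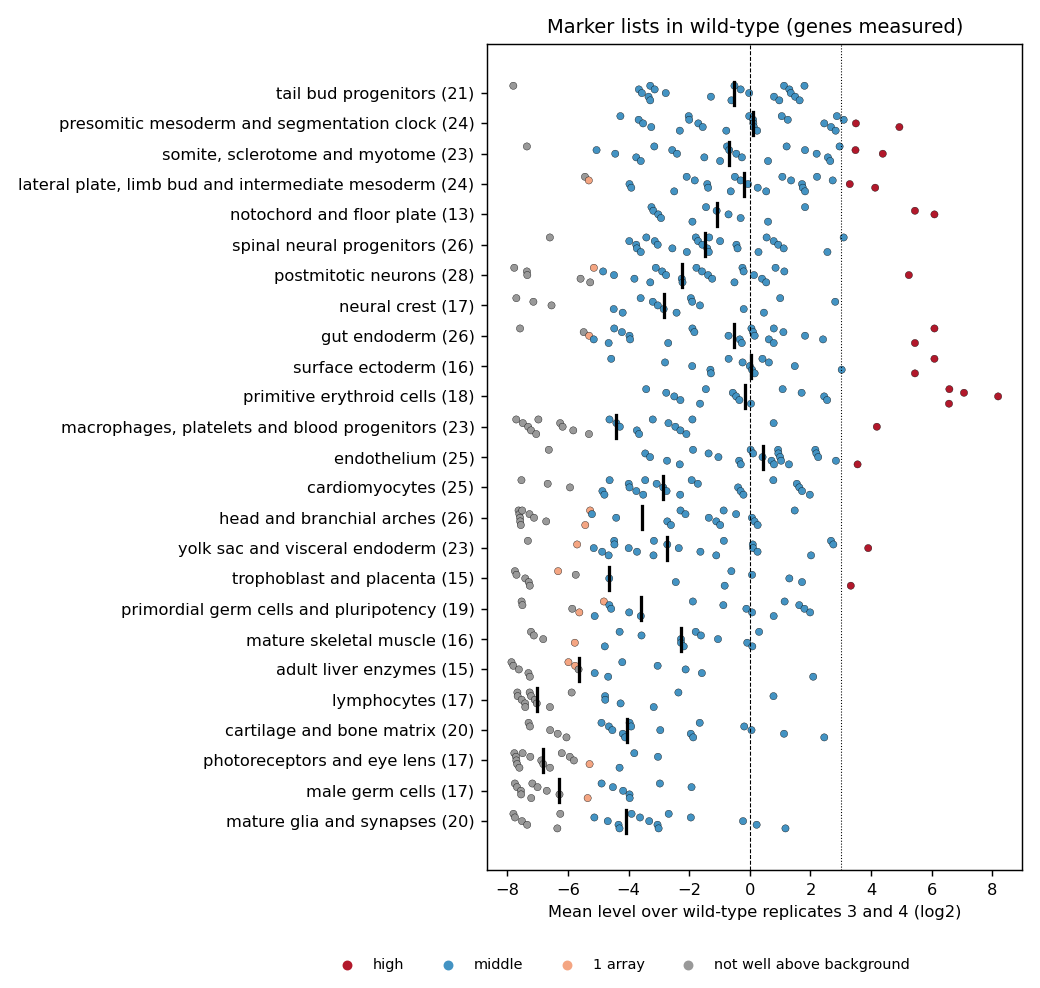
Mean level over wild-type replicates 3 and 4 (x axis, log2 signal minus the array's 75th percentile) of each measured gene in 25 marker lists (y axis, number of genes measured in brackets), coloured by signal class, with a black bar at each list's median. Tail bud, presomitic mesoderm and somite markers lie mostly between -4 and 4, while most markers of photoreceptors and lymphocytes lie at the left in grey, not well above background.

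Tail bud progenitors were represented by middle signals. Of 21 markers measured, 20 were middle and 0 high, and the median was -0.51. Sall4, a zinc finger protein of embryonic progenitors, read 1.79 and 1.81, Wnt5b, a ligand of non-canonical Wnt signalling, read 1.64 and 1.64, and Sp5, a direct target of Wnt signalling, read 1.46 and 1.53. The arrays lay within 0.1 of each other on all of them. Further genes of this list were named for their textbook role after their values were seen. T, the Brachyury transcription factor of axial progenitors, read -0.36 and -0.25, and Cdx2, a caudal factor that drives posterior growth, read 1.19 and 1.42. Fgf8 read 1.26 and 1.45 and Wnt3a read -0.15 and 0.11; both ligands maintain the progenitor pool. Evx1, a homeobox gene of the tail bud, was nearest the list's median at -0.60 and -0.41. Mixl1, a factor of the earlier primitive streak, was the only marker that passed the flag on neither array.

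All 24 markers of the presomitic mesoderm and its clock were well above background. Dusp6, a phosphatase induced by FGF signalling, was high at 4.85 and 5.02, and Nkd1, a feedback inhibitor of Wnt signalling, was high at 3.54 and 3.45. Hes5, a target of Notch, straddled the boundary at 2.88 and 3.32 and so was middle. The T-box factor Tbx6, required for presomitic fate, read 2.78 and 2.96. Hes7, the core repressor of the clock, read -4.15 and -4.39, the lowest of the list, and Lfng, which modifies Notch, read -3.75 and -3.58. Hes7, Lfng and Tbx6 were named after their values were seen.

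Somite derivatives were also nearly all above background, with 22 of 23. Tcf15, the paraxis factor that makes somites epithelial, was high at 4.35 and 4.42, and Meox1, which patterns the sclerotome, was high at 3.49 and 3.48. Foxc1, a forkhead factor of paraxial mesoderm, was just below at 2.94 and 2.98. Myog, a late myogenic factor, was nearest the median at -0.60 and -0.76. Myf5, an early myogenic factor, was the lowest that passed, at -4.95 and -5.16. En1, a homeobox gene of the border between midbrain and hindbrain that also marks parts of the somite, was not well above background.

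Lateral plate, limb bud and intermediate mesoderm contributed 22 of 24 markers above background. Pitx1, the homeobox gene that specifies the hindlimb, was high at 4.15 and 4.12, and Nr2f2, a nuclear receptor of mesenchyme, was high at 3.22 and 3.37. Msx1, a BMP target of limb mesenchyme, read 2.77 and 2.70. The only members that failed were the kidney factors Pax8, which passed the background flag on 1 array, and Pax2, which passed on neither. Notochord and floor plate markers were all above background, 13 of 13, and Foxa2, a forkhead factor of notochord and gut, read 1.76 and 1.88. The highest genes of that list, Krt18 (6.25 and 5.92) and Krt8 (5.69 and 5.20), are keratins of simple epithelia that also lead the lists for gut endoderm (23 of 26 above background) and surface ectoderm (16 of 16). They do not tell these tissues apart. Both keratins were lower in replicate 4.

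Neural lists had lower medians than the presomitic, somite and lateral plate lists. Spinal progenitor markers had 25 of 26 above background and a median of -1.48, led by Hes5 and by Nes, an intermediate filament of neural progenitors, at 2.44 and 2.68. Nkx6-1, a ventral patterning factor, read 1.15 and 1.08. Markers of postmitotic neurons had 22 of 28 above background and a median of -2.23. Elavl4, a neuronal RNA-binding protein, read 1.11 and 1.17, while Chat, Neurod1, Snap25 and En1 were among the 5 not well above background. Syn1, a protein of synaptic vesicles, read 5.30 and 5.19, but its other probe had a mean of -5.44. Neural crest markers had 14 of 17 above background and a median of -2.84; Snai2, a factor of migrating crest and of mesenchyme, read 2.93 and 2.70, while Erbb3 and Ret were not well above background.

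All 18 erythroid genes measured were well above background, with a median of -0.15, and the 4 high ones were all globins. Hbb-bh1, an embryonic beta-like globin, read 8.07 and 8.30, Hbb-y, another, read 6.84 and 7.29, and Hba-x, the embryonic zeta-like globin, read 6.33 and 6.83. Hba-a1 read 6.37 and 6.77. Globin genes are close copies, so their signals may be shared. Macrophage, platelet and blood progenitor markers were sparser, with 13 of 23 above background and a median of -4.40. Cd34, shared by blood progenitors and vessels, was high at 4.09 and 4.29, and Laptm5, a gene of white cells, was nearest the median at -4.30 and -4.50. Adgre1, Aif1, C1qa and C1qc, genes of macrophages, were among the 10 not well above background. Endothelial markers had 24 of 25 above background and a median of 0.42, with Egfl7, a protein secreted by vessels, high at 3.53 and 3.57 and Emcn at 2.86 and 2.82. Of this list, Erg was not well above background.

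Markers of neighbouring or extraembryonic tissue were uneven. Cardiac genes had 22 of 25 above background with a median of -2.86; the brightest were Actc1 (2.15 and 1.81), an actin of heart and early muscle, Hand1 (a mean of 1.72), which lateral mesoderm also expresses, and Myl7 (2.05 and 1.21), a myosin light chain of atrial muscle. Ryr2 and Pln, calcium-handling genes of the heart, and Ttn, its giant spring protein, were not well above background. Head and branchial arch markers had 15 of 26 above background and a median of -3.56. The highest were Lhx2, a homeobox gene of eye and forebrain that limb buds also express, at 1.35 and 1.61, Barx1, a homeobox gene of the arches and stomach, at 0.17 and 0.35, and Gbx2, a homeobox gene of the anterior hindbrain, at 0.14 and 0.17. Dlx6, Fezf1, Fezf2 and Nkx2-1, which pattern the arches and forebrain, were among 9 not well above background. Otx2, the homeobox gene of forebrain and midbrain, was another of the 9. Yolk sac markers had 21 of 23 above background, with Afp, a serum protein of visceral endoderm and gut, high at 4.17 and 3.64. Trophoblast markers had 8 of 15; Krt7 was high at 3.41 and 3.25, while Ctsq, Eomes, Gcm1 and Prl8a9 were not well above background. Germ cell and pluripotency genes had 14 of 19 above background (73.7%, near the 74.0% of all named genes) and a median of -3.60. They were led by Alpl, an alkaline phosphatase, at 1.96 and 2.02. Pou5f1 and Dppa3 passed on 1 array and Dazl, Dppa4 and Esrrb on neither.

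Tissues that form later gave 0 high genes, yet not all were dark. Of 17 photoreceptor and lens markers, 3 were above background on both arrays, and Crx, Arr3, Cryaa and Crygs were not. Of 17 lymphocyte markers 6 were above background, led by Lck at 0.74 and 0.82, a kinase of T cells, while Cd2, Cd28, Cd3d and Cd3g were not. Of 15 adult liver enzymes 7 were above background; Arg1, the last enzyme of the urea cycle, read 2.14 and 2.04, while Cyp1a2, Cyp2c29, Cyp2e1 and Cyp8b1 were not. Cartilage and bone matrix had 15 of 20, with Col2a1, the main collagen of cartilage and also of notochord, at 2.41 and 2.50. Mature skeletal muscle had 12 of 16, led by Tnni2 at 0.50 and 0.11, a fast-fibre troponin. Male germ cell genes had 7 of 17 and genes of mature glia and synapses 14 of 20, with the myelin protein gene Mbp at 1.15 and 1.20. Among all named genes 74.0% were well above background. The shares for cartilage and bone, skeletal muscle, and glia and synapses were near that, so they do not set these lists apart. Those for photoreceptors and lens, lymphocytes, liver enzymes and male germ cells were lower.

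Hox genes were nearly all detected, with the exceptions at the 5′ ends of the clusters. Of 39 genes, 36 were measured, 32 (88.9%) were well above background on both arrays and 4 (11.1%) were high. Among all named genes these shares were 74.0% and 12.7%, so the share of high Hox genes was near that of all genes. All 11 genes of paralog groups 1 to 4 were above background, with a median of 0.26 and 1 high, Hoxb2 (3.36 and 3.35). All 14 genes of groups 5 to 9 were above background, with a median of 0.89 and 3 high. These were Hoxa7 (3.89 and 3.97), Hoxc9 (3.76 and 3.94) and Hoxb9 (3.57 and 3.63), which act in the trunk. In groups 10 to 13, 7 of 11 were above background and 0 were high, with a median of -1.14. Hoxa11, active in kidney and hindlimb, read 1.49 and 1.59. Hoxd13, the most 5′ gene of its cluster and a factor of limb tip and genital region, read 0.33 and 0.19. Hoxc12 passed on 1 array, at -4.52 and -6.17, and Hoxd12, Hoxc13 and Hoxb13 passed on neither. Within a paralog group the members could differ widely: Hoxb9 and Hoxc9 were high while Hoxd9 read 0.09 and 0.29, and Hoxa6 read -3.45 and -3.37 while Hoxb6 read 2.28 and 2.28. The probes of different genes are not on a common scale, so these are differences of signal. Hoxc4, Hoxc6 and Hoxc11 were not matched to a probe.

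**Figure D3:**
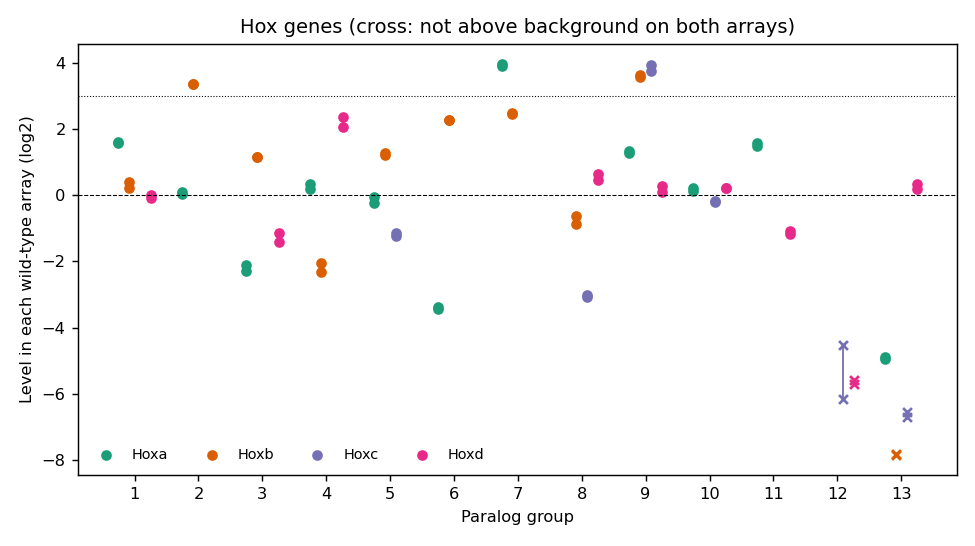
Level of 36 Hox genes in wild-type replicates 3 and 4 (y axis, log2 signal minus the array's 75th percentile) by paralog group (x axis) and cluster (colour), with 2 points per gene joined by a line. Crosses mark genes not well above background on both arrays: Hoxc12, Hoxd12, Hoxb13 and Hoxc13 lie at the lower right, while the points of the other genes nearly overlap.

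Signalling pathways differed in how completely they were covered. All 22 Notch genes, all 16 hedgehog genes and all 18 retinoic acid genes were well above background. The counts were 37 of 40 for Wnt, 38 of 43 for BMP, activin and Gdf11, and 26 of 36 for FGF. Of all named genes 74.0% were well above background, and the FGF share of 72.2% was near that. In the retinoic acid pathway, Aldh1a2, the enzyme that makes retinoic acid in mesoderm, was high at 3.54 and 3.54. The receptor gene Rxra was high at 3.29 and 3.37, but its other probe had a mean of -3.55. Cyp26a1, which degrades retinoic acid in the tail bud, read 1.07 and 0.87, nearest the list's median. Synthesis and degradation genes were therefore both detected in the same dissection.

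Among ligands, receptors and transducers of the other pathways, transducers were among the brightest, read on each gene's brightest probe. Ctnnb1, the beta-catenin gene of Wnt signalling, read 4.74 and 4.75, and the receptor Fzd2 and the nuclear effector Tcf7l1 were high too, with means of 4.02 and 3.95. Smo, the signal transducer of hedgehog, was high at 5.86 and 5.94, with Gli3, its transcription factor, at 2.42 and 2.50. In the BMP list the common mediator Smad4 read 4.13 and 4.17, and the target genes Id2 (4.04 and 4.06) and Id1 (3.81 and 3.93) were high. Several of these genes were much dimmer on their other probe, with means of -0.50 for Fzd2, 1.32 for Tcf7l1, -0.27 for Smo, -6.21 for Gli3 and 0.88 for Smad4. The other probe of Ctnnb1 was high too, at 4.42 and 4.48. Of the FGF list, Dusp6 was high, and Fgf18, a ligand, read 2.66 and 2.61, while Fgf1, Fgf2, Fgf12 and Fgf16 were among 9 not well above background. Notch genes had 0 high and the FGF list 2.78%, against 12.7% of all named genes. Below Hes5 in the Notch list came Hey1, another target, at 2.82 and 2.84. Dll3, a divergent ligand of presomitic mesoderm, read 2.38 and 2.53.

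Imprinted growth genes had a larger share of high signals than the 12.7% of all named genes. All 19 imprinted growth genes measured were above background and 9 (47.4%) were high, led by the growth factor gene Igf2 (7.69 and 7.48), Mest (7.53 and 7.51) and Grb10, an adaptor that restrains insulin signalling (6.03 and 6.02). The other probes of Grb10 had means of -0.68 and -0.11. All 15 genes of the Lin28 and oncofetal list were above background and 6 were high, among them Hmga2 (4.72 and 4.63) and Igf2bp1 (3.43 and 3.57). Of 31 Polycomb and histone H3K27 demethylase genes, 30 were above background and 6 (19.4%) were high. Rbbp4 and Rbbp7, histone-binding subunits shared with other complexes, read 5.51 and 5.39, and 5.34 and 5.27. Ezh2, the methyltransferase, was high at 3.08 and 3.07. Suz12, a core subunit of the same complex, was nearest the median at 1.45 and 1.47. Kdm6a, the X-linked relative of Kdm6b, read -1.56 and -1.61, and Uty, on the Y chromosome, was not well above background. Matrix genes were all above background, 28 of 28, with 5 (17.9%) high, led by Col18a1 (5.39 and 5.27).

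The wild-type arrays were close to each other. Over the 13488 genes well above background on both, the median absolute difference was 0.075, the median SD over the arrays was 0.053, and 96.7% of genes lay within 1.5-fold. Pearson's r across genes was 0.995 and Spearman's rho was 0.9964, as descriptions; genes are not independent replicates. More than 2-fold apart were 144 genes, 1.07% of those compared, of which 53 were higher and 91 lower in replicate 4. They lay among dim genes: 3.17% of genes between -4 and -2 were more than 2-fold apart, against 0.319% between 2 and 4 and 0 of 289 genes at 6 or more. Repeated spots give the spread of single spots within an array. For 182 probes printed in 10 spots and well above background, the median SD over the single spots was 0.057 in each array. The median SD between the arrays was 0.067, but it was taken over means of 10 spots. Such a mean varies less than 1 spot does, so the values cannot be compared directly.

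**Figure D4:**
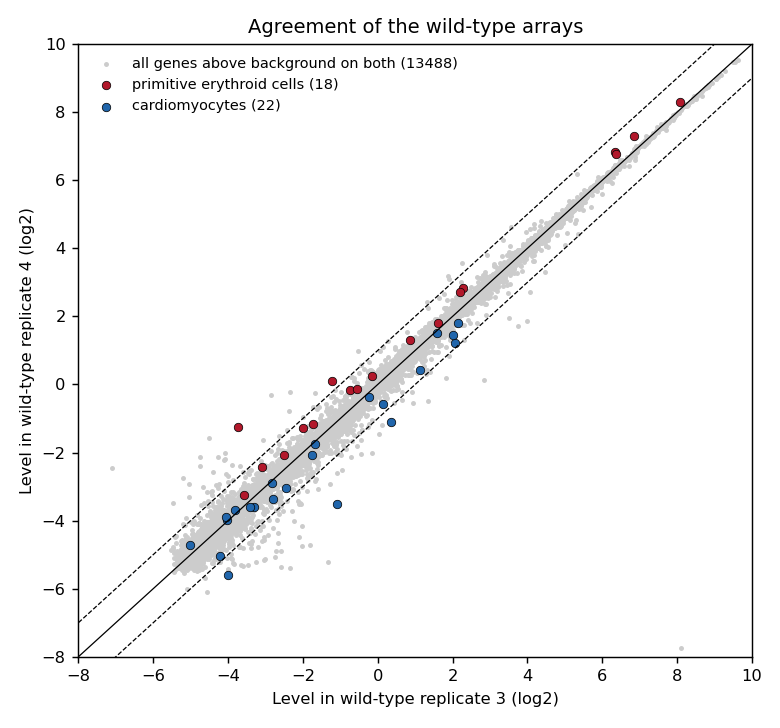
Level in wild-type replicate 4 (y axis) against replicate 3 (x axis), both log2 signal minus the array's 75th percentile, for 13488 genes well above background on both arrays by any of their probes; dashed lines mark a 2-fold difference. All 18 erythroid genes (red) lie above the line of equal level, 18 of 22 cardiac genes (blue) lie below it, and the gene at the lower right is Ppp3r2.

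Some cell type lists differed between the wild-type arrays in 1 direction. All 18 erythroid genes were higher in replicate 4, with a median difference of 0.48, against -0.003 over all genes above background. Klf1, the master regulator of red cells, read -1.22 and 0.10, more than 2-fold apart. Of 13 macrophage, platelet and progenitor genes above background, 11 were higher in replicate 4, by a median of 0.25, and Pf4, a platelet gene, read 0.28 and 1.29. The blood genes thus shifted together. Cardiac genes went the other way, with 18 of 22 lower in replicate 4 and a median of -0.33. Myl4, a myosin light chain of embryonic heart, read 0.34 and -1.12, and Mybpc3, a sarcomere protein of the heart, read -1.08 and -3.52. Myh6, the atrial myosin, differed by -1.59 between replicate 4 and replicate 3 on its brighter probe, which did not pass the background flag on both arrays. Its other probe passed on both and read -4.37 and -5.29, less than 2-fold apart. Skeletal muscle genes were lower in replicate 4 in 11 of 12 cases, by a median of -0.42, and yolk sac genes in 15 of 21, by a median of -0.36, including Fgb, a fibrinogen chain (0.64 and -0.44).

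Matrix genes had the most members more than 2-fold apart of any list, 4 of 28, all lower in replicate 4, although the list's median difference was 0.01. Col1a1, the main collagen of mesenchyme, read 4.48 and 3.29, Postn, a protein of mesenchyme and heart cushions, read 3.51 and 1.96, Lum, a small proteoglycan, read 3.76 and 1.71, and Dcn, another, read 1.83 and 0.20. Tail bud, presomitic, somite, lateral plate, notochord and neural lists each held 0 genes more than 2-fold apart, which in lists of this size is near the 1.07% of all genes compared. Smaller shifts mostly of 1 sign were seen in other lists too: surface ectoderm genes were lower in replicate 4 in 13 of 16 cases (median -0.13), Notch genes higher in 18 of 22 (median 0.16), cytoskeleton genes lower in 21 of 25 (median -0.04) and ribosomal protein genes lower in 64 of 78 (median -0.03). The part that differing amounts of blood, heart, mesenchyme or yolk sac tissue had in these differences was not tested, and with 1 array per sample none of the differences has a replicate check.

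Among the 13488 genes well above background on both arrays, the largest gaps were in Ppp3r2, Prss29 and Inca1 on the lower side and Myh4, Dnah11 and Tox on the higher. Ppp3r2, a testis form of a calcineurin subunit, read 8.12 in replicate 3 and -7.75 in replicate 4 on its brighter probe, while its other probe had a mean of -4.50 and passed the background flag on both arrays. The brighter probe read -7.75 and -7.48 in the Jmjd3-/- samples, so replicate 3 alone was high among 4 arrays. Myh4, a fast myosin, read -7.10 and -2.47 on its brighter probe. Neither of its probes passed the background flag on both arrays, and the gene was included because a different probe passed on each. Of the 20 most different of these genes, 10 in each direction, 14 had a mean below -3.

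A gene's level also depended on which probe was read. For 4429 genes with several probes all above background, the median range over the probes was 2.29, and in 36.8% it was over 3, that is, over 8-fold. Of 1028 high genes with several probes, 252 (24.5%) were high on every probe, and 29 (2.82%) had a probe that passed the flag on neither array. Grn read 8.65 and 8.47 on its brighter probe, with a mean of 1.62 on the other. H2aj had a mean of -1.48 on its other probe. The difference between probes of 1 gene was therefore far larger than that between the arrays.

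The start regions of the genes differed between the signal classes. A window of 300 bases, from 250 before to 50 after the annotated start, was read for the 11942 named genes with exactly 1 window in the RefSeq promoter table (GRCm38.p6). The median number of CG steps was 23 in high genes and 20 in middle genes, but 3 in genes not well above background. At least 20 CG steps were found in 65.0% of high, 50.8% of middle and 9.14% of not well above background genes. With 0 to 5 CG steps, 30.2% of 3187 genes were well above background on both arrays; with 26 to 60 steps, 94.2% of 3002 genes were. The share of high genes rose from 1.07% at 0 to 5 steps to 20.9% at 16 to 20 and then stayed level, at 20.3% with 26 to 60.

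**Figure D5:**
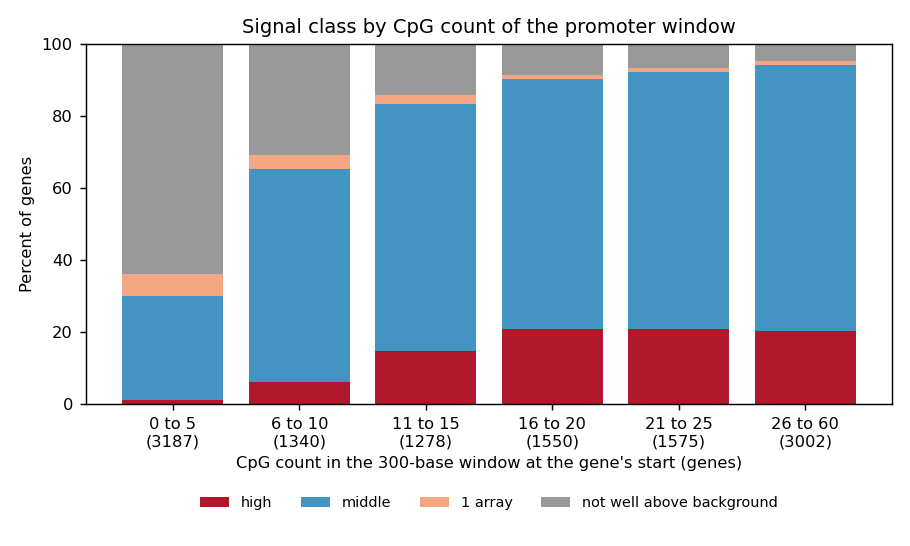
Percent of genes in each signal class (y axis) by the number of CG steps in the 300-base start window (x axis, with the number of genes in brackets), for 11942 genes with 1 window. Grey, not well above background, shrinks from 63.8% at 0 to 5 steps to 4.83% at 26 to 60, and red, high, is 1.07% and 20.3% in the same bins.

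Short motifs were counted on both strands of the same windows. TATAAA was present in 8.73% of high, 8.43% of middle and 24.6% of not well above background windows, and in 12.9% of all. It holds no G or C, and the median GC of these classes was 61.0%, 60.7% and 47.3%, so its count overlaps base composition. On the gene's own strand, between 45 and 16 bases before the start, TATAAA was in 1.78%, 2.14% and 5.78%, and in 3.12% of all. GGGCGG, the core of the GC box, was present in 69.8%, 62.8% and 19.1%, and in 51.8% of all; it contains CG and so overlaps the count above. CCAAT varied little, at 42.5%, 38.5% and 38.9%. Olfactory and vomeronasal genes made up part of the last class. Without them, the median was 4 CG steps and TATAAA was in 19.4%. The share with TATAAA on the gene's own strand between 45 and 16 bases before the start was then 7.33%, higher than the 5.78% with them. These are descriptions of letters in a window and do not show binding.

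The erythroid genes, of which 4 were high and 14 middle, had few CG steps. Of 13 erythroid genes with 1 window, 61.5% had 5 or fewer CG steps and 0 had 20 or more. Over all windows of named genes these shares were 26.7% and 41.1%. Other lists also had many genes with 5 or fewer, 71.4% for photoreceptors and lens and 66.7% for lymphocytes. The share was 11.8% for presomitic and clock genes, 10.5% for Hox genes and 0% for tail bud and ribosomal protein genes. The promoters of 4 genes, 1 from each kind, are printed to show the range. Each line gives the 150 bases just before the annotated start, 5′ to 3′ on the gene's own strand, from RefSeq GRCm38.p6, with CG steps in capitals. Rpl7a is a high ribosomal gene (chr2:26910657-26910806, plus strand, 15 CG steps). Hba-x is a high globin gene with no CG step and a TATAAA whose first base lies 28 bases before the start (chr11:32276450-32276599, plus strand). Cdx2 is a middle tail bud gene (chr5:147307250-147307399, minus strand, 10 CG steps). Crx is a photoreceptor gene not well above background (chr7:15879956-15880105, minus strand, 1 CG step).
Rpl7a: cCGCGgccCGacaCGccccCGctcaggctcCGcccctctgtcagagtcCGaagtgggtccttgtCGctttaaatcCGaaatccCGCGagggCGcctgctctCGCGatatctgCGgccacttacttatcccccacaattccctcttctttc
Hba-x: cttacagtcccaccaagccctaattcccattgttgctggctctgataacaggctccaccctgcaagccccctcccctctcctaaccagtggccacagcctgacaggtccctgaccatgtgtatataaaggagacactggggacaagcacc
Cdx2: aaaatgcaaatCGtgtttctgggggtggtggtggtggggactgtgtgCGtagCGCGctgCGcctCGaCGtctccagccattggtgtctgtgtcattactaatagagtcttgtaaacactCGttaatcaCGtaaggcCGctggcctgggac
Crx: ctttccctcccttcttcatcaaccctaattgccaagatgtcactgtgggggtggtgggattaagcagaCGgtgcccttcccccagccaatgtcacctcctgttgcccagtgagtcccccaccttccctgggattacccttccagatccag

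By chromosome, the share of genes well above background on both arrays ran from 67.5% on chromosome 7 to 82.7% on chromosome 12 among the autosomes. Chromosomes 2, 7 and 9 carry large clusters of olfactory and vomeronasal receptors; without these families the range was 72.2% to 82.7%, and chromosome 7 gave 76.8%. The X chromosome gave 69.7% of 653 genes, and the Y chromosome 0 of 13.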

How the data were processed

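The authors read 1-colour arrays with Agilent Feature Extraction 10.7.3.1, per the submitters' processing notes. The deposited intensity of a spot (processed signal) had its background subtracted and spatial trend removed, per the file headers, with no scaling between arrays. The authors' deposited value table holds log2 values whose scale no label states. Set against the scanner files (r = 0.9947 for the difference between the wild-type arrays, 99.9% of probes within 0.01), it proved to be scaled to the 75th percentile and centred on the wild-type mean. Its wild-type columns have medians of 0.02 and -0.02, its Jmjd3-/- columns -0.021 and 0.055. It holds no levels and was used only as an alternative for the difference between the arrays.

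From 45018 spots, 1639 control spots were left out, log2 processed signals were averaged over the spots of a probe, and each array's 75th percentile was subtracted. No gene names accompany the probes in the files, only accessions. Accessions in the RefSeq gene table (GRCm38.p6) named 26690 of 41174 probes and synonyms named 28; 14456 stayed unnamed. The file headers name another genome build (mm9), so no probe coordinates are given, and the coordinates printed are those of the RefSeq promoter table. The brightest probe by wild-type mean gave a gene's level. A gene counted as well above background on an array where any of its probes passed the flag, and a probe passed where most of its spots did.

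No test was made: 1 group with 2 arrays has no contrast. The number of arrays limits the precision, and nothing says whether the spread between them includes more than 1 embryo each. Calculations used Python 3.11.15, numpy 2.4.6, pandas 2.3.3, R 4.3.3 and limma 3.58.1, and were tested on simulated data. Alternatives were the boundary of high, the background flag, the rule for several probes, the background correction (normexp, offset 50), the scaling, flagged spots, naming, and leaving out each array. The plan had normexp on the mean signal, a column not in the files; the median signal was used.

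The members and the gene lists were chosen with earlier results of these data known. Genes were named by rule: the 25 highest; in each list the 3 highest, the 1 nearest the median, and up to 4 not well above background and 3 on 1 array; all Hox and sex-linked genes; the 10 that differed most each way; and the 6 nearest the boundary on each side. Of these a selection is printed. T, Cdx2, Fgf8, Wnt3a, Tbx6, Hes7, Lfng, Myf5, Hba-a1, Otx2, Ezh2, Kdm6a, and the list members more than 2-fold apart were added after their values were seen. Clone and model names were counted and not named. Some named items are not reported here.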

Additional observations from a re-analysis of the deposited data

Results flagged for a closer look

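Probes that no gene name could be given to were outside the comparisons above and carried signal. Of 14456 unnamed probes, 5150 were well above background on both wild-type arrays and 394 were high on both by the same boundary. Of 153 negative control probes, 0 and 3 passed the background flag. Of all 41174 probes, 61.6% passed in replicate 3 and 62.3% in replicate 4. Those shares are for single arrays and include the unnamed probes, so they cannot be set directly against a count on both arrays. The unnamed probes were picked out because the signal lies in data that the named genes do not include. The genes they measure were not analysed here.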

How the results depend on the processing

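The counts that moved most did so with the definitions. With the boundary of high at 2 there were 3746 high genes and at 4 there were 1281, against 2315. With the flag for a positive and significant signal in place of the stricter one, 1961 genes were not above background, 835 were above it on 1 array and 459 were more than 2-fold apart between the wild-type arrays, against 4209, 527 and 144. The count of 144 became 401 with genes above background on at least 1 array and 710 with no filter, 439 at 1.5-fold, 46 at 3-fold, and 53 with normexp on the median signal. It was 148 with quantile scaling, 153 with equal medians, 142 without outlier spots and 144 from the authors' deposited table. With the mean over probes, 1691 genes were high. Without replicate 3 or replicate 4, the high count was 2373 and 2356 and the count not well above background 4448 and 4497. Over the gene lists, 51 of 1056 recomputed counts moved by over 1.5 times, most of them with the boundary of high; of 528 counts of genes above background 2 moved, to 10 for photoreceptors and lens and 13 for male germ cells, both under the looser flag. No paired analysis was possible because the result comes from 1 group and no test. Signal near background limits what can be said: most genes more than 2-fold apart were dim.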

Other observations

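The lists on handling of the tissue add values that belong to no comparison above. Of 22 immediate early and stress genes, 19 were well above background on both arrays and 4 were high. Hspa8, a chaperone present in all cells, read 7.71 and 7.70 in wild-type replicates 3 and 4, Hsp90aa1 read 7.68 and 7.67, and Dnajb1, a co-chaperone, read 5.24 and 5.20. Jun was nearest the median at -0.09 and -0.12, while Fos and Egr3, which are induced fast when cells are disturbed, passed the background flag on neither array. All 18 hypoxia response genes were well above background and 1 was high. That was Slc2a1, the glucose transporter of embryonic cells, at 5.94 and 5.80; Vegfa, the growth factor of vessels, was nearest the median at 0.61 and 0.74. Neither list held a gene more than 2-fold apart between the arrays.

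Clone and model names made up 644 of the named genes, and 341 of them were well above background on both arrays. Of the families grouped by symbol, keratin-associated proteins, which belong to hair, had 14 of 40 genes above background and 1 high, Krtap4-6, with a mean of 6.29. Of 10 genes of the chaperonin that folds actin and tubulin, 9 were above background and 8 were high, led by Cct2 with a mean of 7.01. Cadherins and protocadherins had 32 of 67 above background, and solute carriers 249 of 355 (70.1%), with Slc25a4, the mitochondrial carrier of ATP and ADP, at a mean of 7.35.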
